A study of Saccharomyces cerevisiae with 4 samples.

Results

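The 35 genes described here encode the proteasome of budding yeast and its regulator: 14 subunits of the 20S core, 10 of the 19S base, 9 of the 19S lid, the maturation factor UMP1 and the transcription factor RPN4. They were chosen by name, as the genes of these complexes, but with earlier results of these data known. On the arrays 40 probe sets named 1 of these genes alone, out of 9335 in all, and every one of the 35 genes had at least 1 probe set above the detection floor, for 39 measured probe sets. The floor was each array's 40th percentile, and a probe set counted as measured when it lay above it on all 4 arrays, which held for 3923 of 5656 genes.

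The arrays ask which transcripts carry more or fewer ribosomes when protein folding in the endoplasmic reticulum fails. Cells of Saccharomyces cerevisiae strain BY4741, mating type a, with the alleles his3Δ1, leu2Δ0, met5Δ0 and ura3Δ0 as the labels give them, grew in rich medium and took 2 mM dithiothreitol (DTT), a reductant that breaks disulphide bonds, or an equal volume of water, for 1 h. Cycloheximide then held ribosomes on their messages, and sucrose gradients parted each lysate into a light, sub-polysomal fraction and a heavy fraction of messages under several ribosomes, the polysomes. Each fraction of the water-treated control cells and of the DTT-treated cells was 1 group with 1 array, on which RNA pooled from 3 extracts was hybridised, and all 4 groups passed through buffers with 0.5 mM DTT. Against the label, the MET5 probe set was above the floor on all arrays (96.7 to 184.5), and so were both probe sets of HIS3 (160.2 to 207.8 and 40 to 53.1), while those of LEU2, URA3 and MET17 were not measured. The his3Δ1 allele is a partial deletion, and which part of the gene these probe sets cover was not examined.

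The proteasome destroys proteins that carry ubiquitin chains. Its 20S core is a barrel of outer alpha rings, which gate the entrance, and inner beta rings, which hold the peptidase sites. The 19S particle caps the barrel: a base with a ring of ATPases unfolds the substrate and threads it in, and a lid cuts off the ubiquitin. Proteins that fail to fold in the endoplasmic reticulum are sent back to the cytosol and end here. In yeast the transcription factor Rpn4 drives the subunit genes together and is itself a short-lived substrate of the proteasome.

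No group was replicated, so differences carry no replicate error and no p-value is given. The only spread at hand was that between probe sets of the same gene, over 161 genes, with an SD on the log2 scale of 0.41 for the polysome ratio (polysomal over sub-polysomal) of control cells, 0.32 for that of DTT-treated cells, 0.45 and 0.41 for DTT against control in sub-polysomal and polysomal RNA, and 0.43 for the change in polysome association, which is the ratio with DTT minus the ratio in control cells. It says nothing of the spread between cultures. The control sub-polysomal array stood apart: its rank correlations with the others over all probe sets were 0.885 to 0.920, against 0.922 to 0.959 among the others. The 3' to 5' signal ratio, a sign of RNA quality, was higher on both sub-polysomal arrays: for ACT1 2.49 (control) and 1.91 (DTT) against 1.52 and 1.48 on the polysomal arrays, and for SPT15 4.41 and 4.83 against 3.11 and 3.12. That array enters neither the polysomal comparison of DTT with control nor the polysome ratio of DTT-treated cells. Each array was one wash and one scan, so array and group cannot be told apart. Known targets of the stress were higher with DTT in both fractions, such as the chaperone gene KAR2 (log2 changes of 0.92 sub-polysomal and 0.76 polysomal).

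With each array centred on its median, proteasome transcripts lay on the polysomal side almost without exception, with and without DTT. In control cells 34 of 35 genes had a log2 polysome ratio above 0, where 48.5% of all measured genes did, and in DTT-treated cells it was again 34 of 35, where 54.5% of all genes did. Of the 35, 33 were above 0 in both. The median ratio was 0.61 in control cells (1.53-fold) and 0.59 in DTT-treated cells (1.50-fold), beside all-gene medians of -0.03 and 0.08. The exceptions were RPT4 in control cells (-0.02) and RPN4 in DTT-treated cells (-0.23), both smaller than the spread between probe sets. Under loess scaling, which depends on intensity, 27 of 35 were above 0 in control cells (50.0% of all genes) and 31 with DTT (50.5%). The medians were then 0.43 and 0.38. Of the 35 genes, 29 were brighter than the median measured gene, and the part of brightness in the ratios and their spread was not tested. The higher 3' to 5' ratios of the sub-polysomal arrays run along with the polysome ratio in both conditions, and their part in it was not tested.

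**Figure D1:**
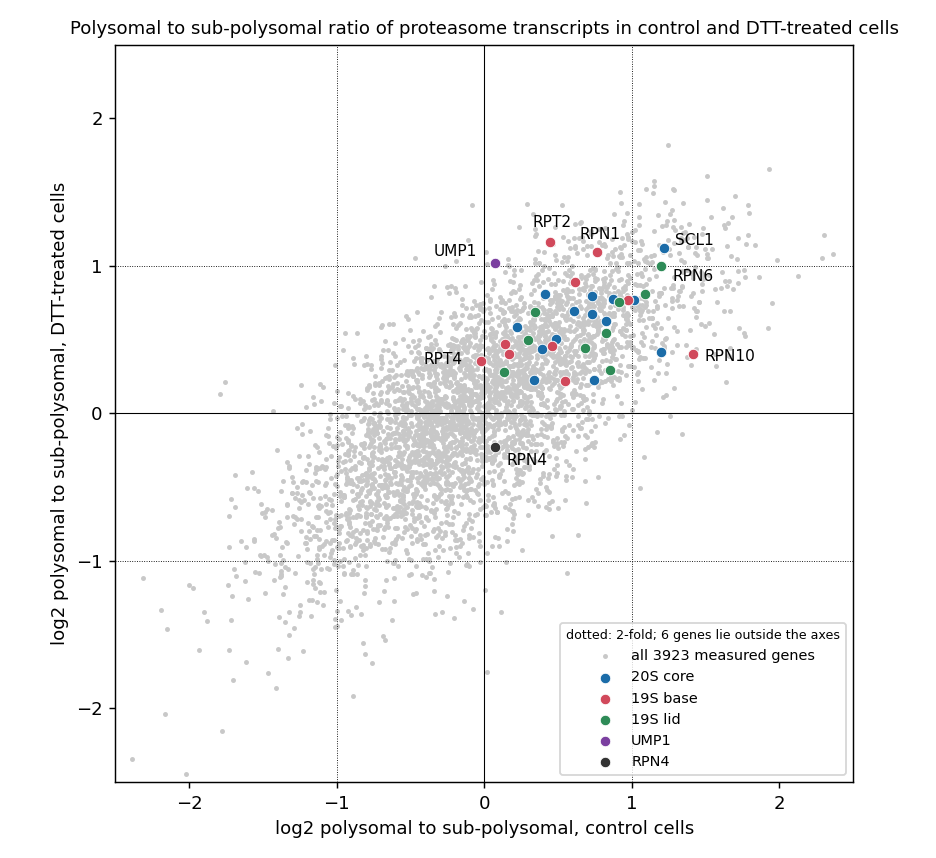
Log2 polysome ratio (polysomal over sub-polysomal) of control cells (horizontal) against DTT-treated cells (vertical) for all 3923 measured genes (grey) and the 35 proteasome genes (coloured by subcomplex), 1 array per group. The proteasome genes lie mostly at the upper right, 33 of 35 of them above 0 on both axes; 6 grey genes lie outside the axes.

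Few of these ratios were large. At least 2-fold polysomal enrichment was seen for 6 of 35 genes in control cells (7.11% of all genes) and for 4 of 35 with DTT (4.79%). At the lower limit of 1.5-fold the counts were 19 in control cells, beside 19.2% of all genes, and 18 with DTT, beside 18.7%. On the other side, 0 of 35 reached even 1.5-fold sub-polysomal enrichment in either condition, where 19.9% of all genes did in control cells and 14.1% with DTT (6.5% and 3.8% at 2-fold). The SD over the 35 genes was 0.38 in control cells and 0.30 with DTT, against 0.68 and 0.59 over all genes.

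Where 4 intensities follow a gene, the first pair comes from control cells and the last pair from DTT-treated cells. Each pair has the sub-polysomal value before the polysomal one. These are deposited intensities before centring, whereas ratios and changes come from the centred arrays and can differ from them in size or sign. SCL1 (YGL011C), an alpha ring subunit, read 71.1, 147.2, 116.4 and 213.9. Both polysomal values lay above both sub-polysomal ones, and its ratio was at least 2-fold in both conditions (2.33-fold and 2.17-fold). RPN6 (YDL097C), the lid subunit that clamps lid, base and core together, read 103.1, 210.8, 185.0 and 312.3, with ratios of 2.30-fold in control cells and a log2 value of 1.00, just short of 2-fold, with DTT. PRE1 (YER012W) of the beta ring read 170.5, 306.9, 231.6 and 334.1, and RPN5 (YDL147W), a lid scaffold subunit, 60.5, 114.3, 91.2 and 135.2. These genes shared one profile, with both polysomal arrays above both sub-polysomal arrays.

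On the centred scale 0 of 35 genes had their highest value on a sub-polysomal array, while 36.6% of all genes had it on the control and 14.7% on the DTT sub-polysomal array. The DTT polysomal array held the highest value for 26 of the 35 (23.0% of all genes), and the control polysomal array for the other 9. The control sub-polysomal array held the lowest value for 24 of 35 (23.6% of all genes) and the DTT sub-polysomal array for 9.

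**Figure D2:**
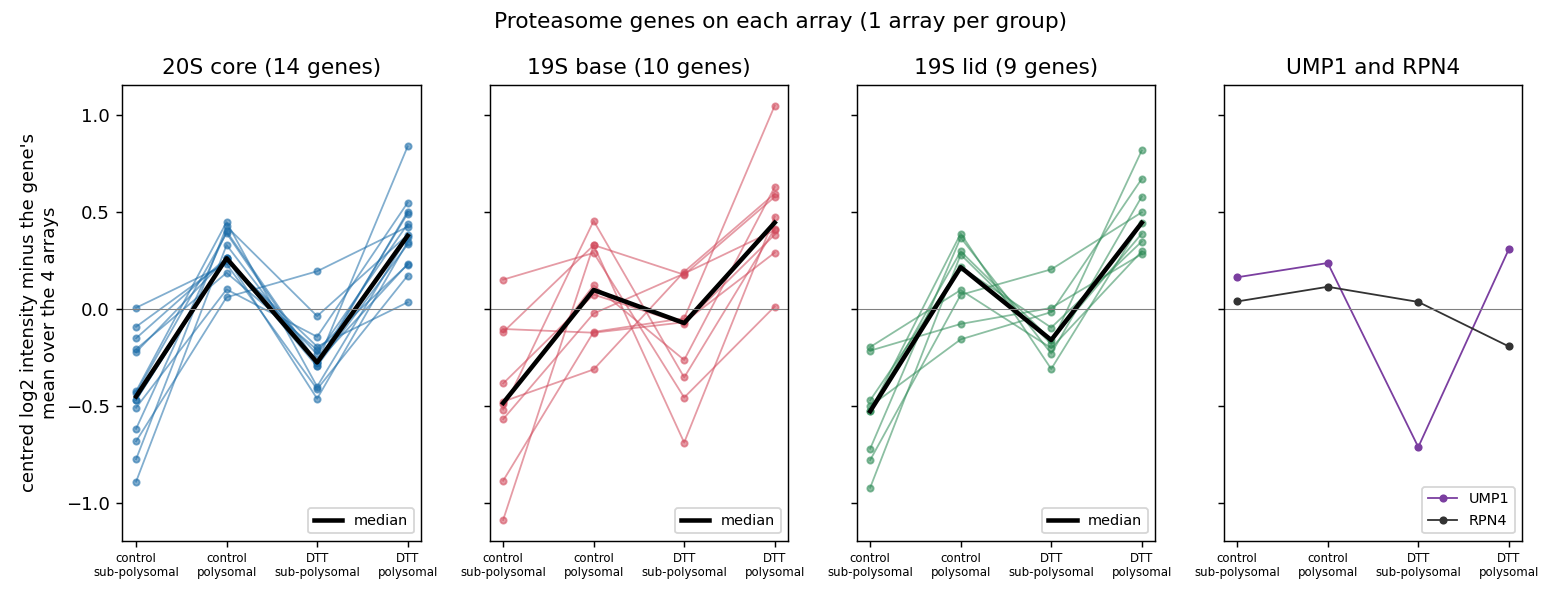
Each line is a proteasome gene: its centred log2 intensity on the 4 arrays, minus its own mean over them, in panels for the 20S core, the 19S base, the 19S lid, and UMP1 with RPN4. The medians (black) of the core, base and lid are higher on both polysomal arrays than on both sub-polysomal arrays, and highest on the DTT polysomal array. On the control polysomal array the base median lies only slightly above 0. UMP1 dips on the DTT sub-polysomal array alone.

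All 14 core genes had a log2 polysome ratio above 0 in both conditions, as had all 9 lid genes. The core medians were 0.73 in control cells and 0.65 with DTT. The alpha ring had a median of 0.61 in control cells and 0.67 with DTT, and the beta ring 0.74 and 0.51. In the beta ring, PUP1 (YOR157C), which carries the trypsin-like site, read 275.8, 448.6, 301.0 and 435.1, and PRE2 (YPR103W), which carries the chymotrypsin-like site, 327.9, 483.2, 396.7 and 583.6. PRE8 lay lowest in control cells (0.23), and PRE6 and PRE4 with DTT (0.23 each). The PRE8 value changed sign under loess and quantile scaling, and the other values under those and without centring.

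The lid had medians of 0.83 in control cells and 0.55 with DTT, and 9 of 9 genes were above 0 in both. RPN8 (YOR261C), the inactive partner of the lid's deubiquitinase, lay lowest in both (0.14 and 0.28), and its control value changed sign under loess scaling, without centring and with the floor at the 60th percentile. The base lay lower, with medians of 0.50 and 0.46, through its ATPases (0.45 and 0.46) more than its other subunits (0.69 and 0.65). RPT1 (0.14), RPT4 (-0.02) and RPN13 (0.17) were the base genes nearest 0 in control cells, and the sign of each depended on the scaling or the floor.

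**Figure D3:**
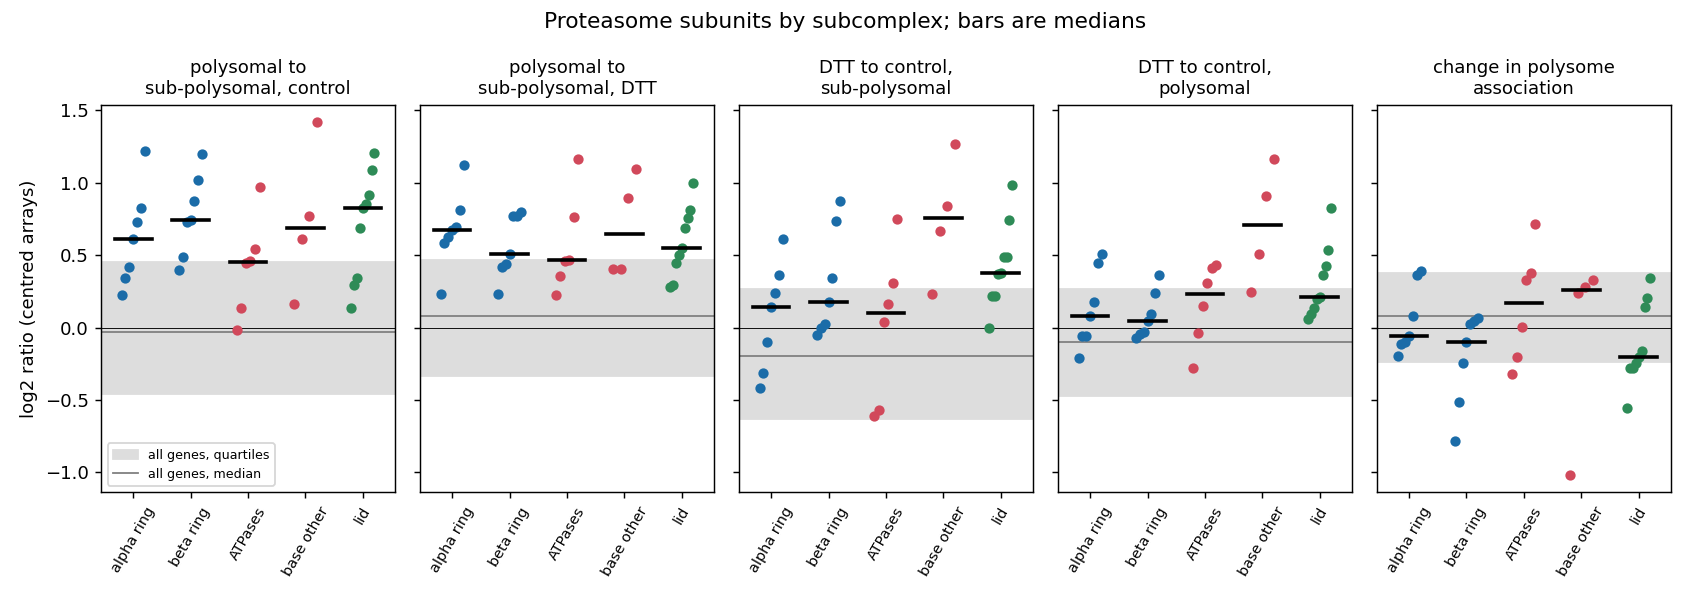
The 33 subunit genes by subcomplex (points, with their median as a bar) for the 5 log2 quantities; the grey band is the interquartile range of all measured genes and the grey line marks their median. Subunits lie above the all-gene median in nearly every panel but the last, where the lid median is -0.21 and that of the base ATPases 0.17.

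Proteasome transcripts were modestly higher with DTT in both fractions relative to the typical gene. In sub-polysomal RNA 25 of 35 genes were above 0 (37.7% of all genes) with a median log2 change of 0.23. In polysomal RNA 26 of 35 were (42.2% of all genes) with a median of 0.18. In both fractions 21 were above 0, where 28.7% of all genes were. The all-gene medians were -0.20 and -0.10, so that the proteasome genes stood 0.43 and 0.28 above the typical gene. These distances were smaller under loess scaling (0.27 and 0.20) and quantile scaling (0.32 and 0.16). Total RNA was not analysed here, so these are levels within each fraction.

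Changes of single genes were small. In each fraction 1 of 35 genes was at least 2-fold higher (5.68% of all genes in sub-polysomal and 4.33% in polysomal RNA), RPN10 and RPN1 in that order, and 0 were 2-fold lower (11.1% and 7.04%). At 1.5-fold, 9 were higher and 2 lower in sub-polysomal RNA, beside 13.8% and 27.2% of all genes, and 3 higher and 0 lower in polysomal RNA, beside 11.4% and 19.2%. The shares that were higher by these limits were close to those of all genes in polysomal RNA, and the contrast with other genes lay in the missing lower side and in the count above 0. The SD over the 35 genes was 0.32 in polysomal RNA against 0.65 over all genes, and 0.47 against 0.73 in sub-polysomal RNA.

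The base subunits that are not ATPases were highest with DTT. Their medians were 0.75 in sub-polysomal and 0.71 in polysomal RNA, and all 4 were above 0 in both. RPN1 (YHR027C), the large scaffold on which shuttle factors and the deubiquitinase Ubp6 dock, read 47.4, 71.7, 90.9 and 164.4. It was higher with DTT in both fractions, by 1.79-fold on the sub-polysomal and 2.24-fold on the polysomal arrays. The control sub-polysomal reading of RPN1 was 1.68 times the floor of that array. RPN13 (YLR421C), a ubiquitin receptor, read 239.4, 238.7, 408.6 and 456.8. Its DTT arrays both lay above both control arrays, with changes of 1.59-fold and 1.87-fold.

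RPN2 (YIL075C), the other large scaffold, read 108.4, 147.4, 136.3 and 214.0, with log2 changes of 0.23 and 0.51. RPN10 (YHR200W), the second ubiquitin receptor of the base, read 177.6, 421.5, 457.8 and 511.5. RPN10 was lowest on the control sub-polysomal array, with intensities closer together on the other 3. Its 2.40-fold change in sub-polysomal RNA rests on that 1 array, and in polysomal RNA its log2 change was 0.25.

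The ring of ATPases was mixed, with medians of 0.10 in sub-polysomal and 0.23 in polysomal RNA. RPT3 (YDR394W) was higher with DTT in both fractions (0.75 and 0.43) and read 61.7, 80.0, 111.4 and 110.0. RPT1 (YKL145W) was the 1 subunit of the base below 0 in both (-0.61 and -0.28), with readings of 390.1, 381.5, 274.7 and 321.7. Both its DTT values lay below both control values. RPT4 had changes of 0.03 and 0.41, RPT6 of 0.17 and -0.04, and the signs of the smaller value in each pair depended on scaling.

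RPT5, an ATPase whose tail helps open the core's gate, was read by 4 probe sets, of which 1 lay below the floor. The other 3 disagreed in sub-polysomal RNA (log2 changes of 0.43, 0.77 and -0.28), and the negative one is the plain probe set, the kind meant to match 1 transcript. Its mean of 0.31 there is uncertain. PRE3, the beta ring subunit with the caspase-like site, had the same problem, with changes of -0.88, 1.11 and -0.38 from 3 probe sets, the last one plain.

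The lid was the subcomplex with the most even direction. All 9 genes were above 0 in polysomal RNA (median 0.21) and 8 of 9 in sub-polysomal RNA (median 0.37), with SEM1, the small acidic lid subunit, at -0.01, a sign that changed in 6 of 9 alternative settings. RPN11 (YFR004W), the metalloprotease that strips ubiquitin from the substrate, read 171.9, 194.0, 258.2 and 351.6. Both DTT values lay above both control values, with changes of 1.40-fold and 1.77-fold. RPN12 (YFR052W), which joins the lid last in its assembly, read 40.4, 64.8, 85.7 and 88.9, with DTT to control ratios of 1.98-fold (sub-polysomal) and 1.34-fold (polysomal). Its control sub-polysomal reading was 1.43 times the floor of that array. RPN6 stood at 0.74 and 0.54. The other 5 lid genes, RPN3, RPN5, RPN7, RPN8 and RPN9, lay between 0.22 and 0.49 in sub-polysomal and between 0.06 and 0.36 in polysomal RNA.

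**Figure D4:**
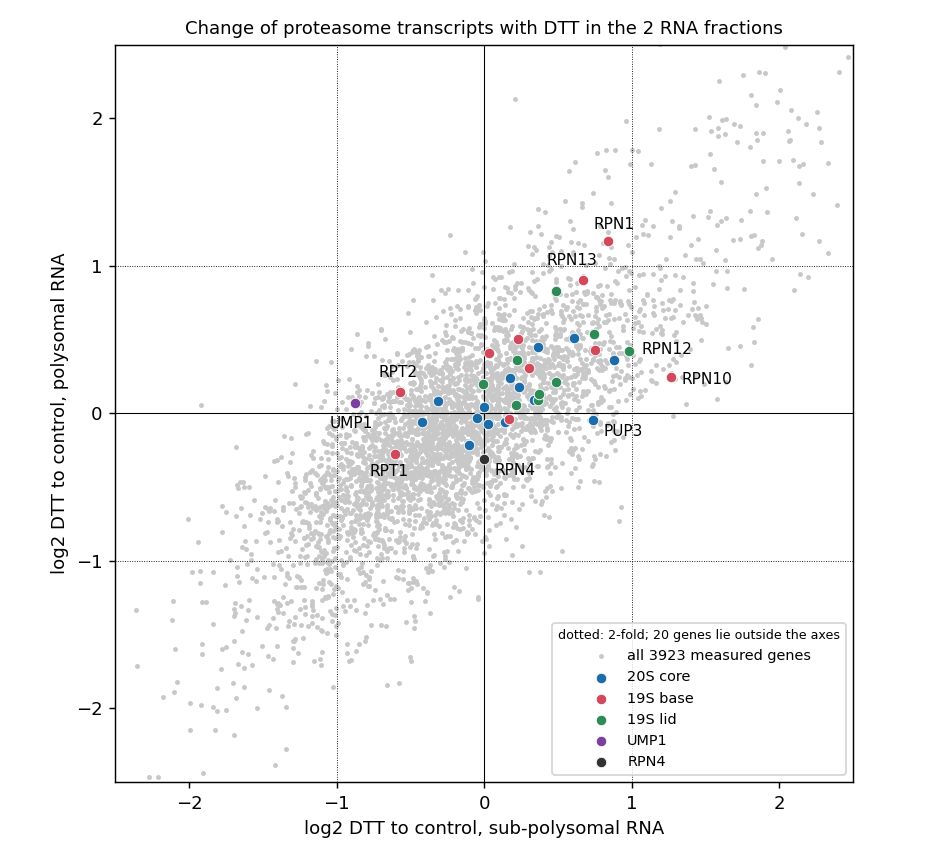
Log2 DTT to control in sub-polysomal (horizontal) and polysomal RNA (vertical) for all 3923 measured genes (grey) and the 35 proteasome genes (coloured); dotted lines mark 2-fold, and 20 grey genes lie outside the axes. Of the 35, 21 lie above 0 on both axes, 5 below 0 on both, and only RPN10 and RPN1 pass a 2-fold line.

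Of core, base and lid, the core stood nearest 0. Its medians were 0.16 in sub-polysomal and 0.06 in polysomal RNA, the latter turning to -0.01 under quantile scaling, and 6 of 14 genes were above 0 in both. PRE4 was the highest core gene in sub-polysomal RNA (0.88, with 0.36 in polysomal RNA) and SCL1 in polysomal RNA (0.51, with 0.61 in sub-polysomal RNA). PRE4 (YFR050C), of the beta ring, read 244.0, 362.9, 480.8 and 476.9, with both DTT values above both control values. PUP2 of the alpha ring (0.37 and 0.45), PRE9, the one core gene that yeast can lose and live (0.24 and 0.18), PRE2 (0.17 and 0.24) and PRE1 (0.34 and 0.09) were above 0 in both as well. PRE8 (-0.42 and -0.06) and PRE6 (-0.10 and -0.21) were below 0 in both, as was the mean of the discordant PRE3 probe sets (-0.05 and -0.03). The 5 with opposite signs were PRE5 (-0.31 and 0.08), PRE10 (0.14 and -0.06), PUP1 (0.02 and -0.07), PRE7 (-0.00 and 0.04) and PUP3.

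Polysome association of the 35 genes with DTT lay close to that without it. The median change was -0.06 over the 35 genes and 0.08 over all genes, and 17 of 35 were above 0 where 56.8% of all genes were. With DTT 0 of 35 became at least 2-fold more polysomal (1.99% of all genes) and 1 at least 2-fold less (1.45%), RPN10. At 1.5-fold the counts were 2 and 2, beside 13.6% and 9.13% of all genes. Of the 35 genes, 29 lay within the spread between probe sets (0.43). The 20S core had a median of -0.08, the base 0.26 and the lid -0.21. The sign of the core median turned with hybridisation control scaling, where the all-gene median was 0.25.

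RPN10 and PUP3 read less polysomal with DTT. The ratio of RPN10 went from 2.67-fold in control cells to 1.32-fold with DTT, a log2 change in association of -1.02, and the latter ratio turned to -0.03 (log2) under quantile scaling. PUP3 (YER094C), of the beta ring, read 285.7, 583.4, 511.2 and 578.2, and its change was -0.78, with a log2 polysome ratio of 0.42 with DTT that turned to -0.01 under loess scaling. Both genes were low on the control sub-polysomal array and alike on the other 3. RPN12 (-0.56) and PRE4 (-0.51) came next, and both were also lowest on the control sub-polysomal array. The part of that array in these values was not tested.

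UMP1 (YBR173C) and RPT2 (YDL007W) read more polysomal with DTT. UMP1, the factor that helps core precursors join and is then degraded inside the finished core, read 57.1, 53.4, 33.4 and 57.3. It was low on the DTT sub-polysomal array only, so that its polysome ratio was 1.05-fold in control cells and 2.03-fold with DTT, a change in association of 0.95. That low reading was 1.48 times the floor of its array. RPT2, the ATPase that opens the gate of the core, read 79.1, 95.9, 57.2 and 108.5, again lowest on the DTT sub-polysomal array, with a change of 0.72.

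RPN4 (YDL020C) was not higher with DTT. It read 176.7, 165.5, 189.3 and 136.6, lowest on the DTT polysomal array. Its log2 change was -0.00 in sub-polysomal RNA, with a sign that turned in 4 of 9 alternative settings, and -0.31 in polysomal RNA, between -0.34 and -0.06 in the alternatives. It was the lowest of the 35 genes in the polysomal comparison and the only one with a ratio below 0 in DTT-treated cells. All of these values were smaller than the spread between probe sets. Of the transcription factors known to act on the RPN4 promoter, HSF1, the heat shock factor, was higher with DTT by 3.11-fold (sub-polysomal) and 2.50-fold (polysomal), with readings of 60.0, 78.8, 200.5 and 201.4. PDR1 (-0.22 and -0.10) and YAP1 (-0.25 and -0.06) were slightly lower, and PDR3 stood at -0.00 and 0.34.

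Among genes that help build or extend the proteasome, ADD66, PBA1, STS1 and SPG5 were at least 2-fold higher with DTT in sub-polysomal RNA. Of 14 assembly chaperones, activators and adaptors 12 were measured. These 4 were past 2-fold in sub-polysomal and 3 of them in polysomal RNA, where 5.68% and 4.33% of all genes were. The list was chosen with earlier results of these data known, so its counts are a description and no test. None of the 12 was 2-fold lower, as 11.1% and 7.04% of all genes were. The list medians were 0.33 and 0.27, beside 0.24 and 0.20 for the 33 subunits, and the difference was not tested. ADD66, one member of the chaperone pair Pba1-Pba2 that assembles the alpha ring, read 48.5, 62.8, 196.4 and 165.2 and was 3.77-fold and 2.58-fold higher. Its partner PBA1 read 64.1, 68.7, 147.5 and 122.6, 2.14-fold and 1.75-fold higher. For both, the DTT arrays lay well above the control arrays in either fraction.

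The genes of the second chaperone pair, IRC25 and POC4, stood below 0, at -0.45 and -0.96 in sub-polysomal and -0.22 and -0.47 in polysomal RNA. IRC25 turned just above 0 in polysomal RNA under hybridisation control scaling (0.03). SPG5, needed for proteasomes in stationary phase, read 39.5, 51.5, 113.9 and 169.4 (2.69-fold and 3.22-fold higher), and STS1, which brings proteasomes to the nucleus, 56.9, 53.0, 170.6 and 110.0 (2.79-fold and 2.03-fold). The lowest SPG5 reading, on the control sub-polysomal array, lay near the floor of 28.2. In contrast, the base chaperone genes NAS6 (0.62 and 0.12) and RPN14 (-0.04 and -0.05) did not reach 2-fold, and NAS2 and HSM3 were not measured.

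**Figure D5:**
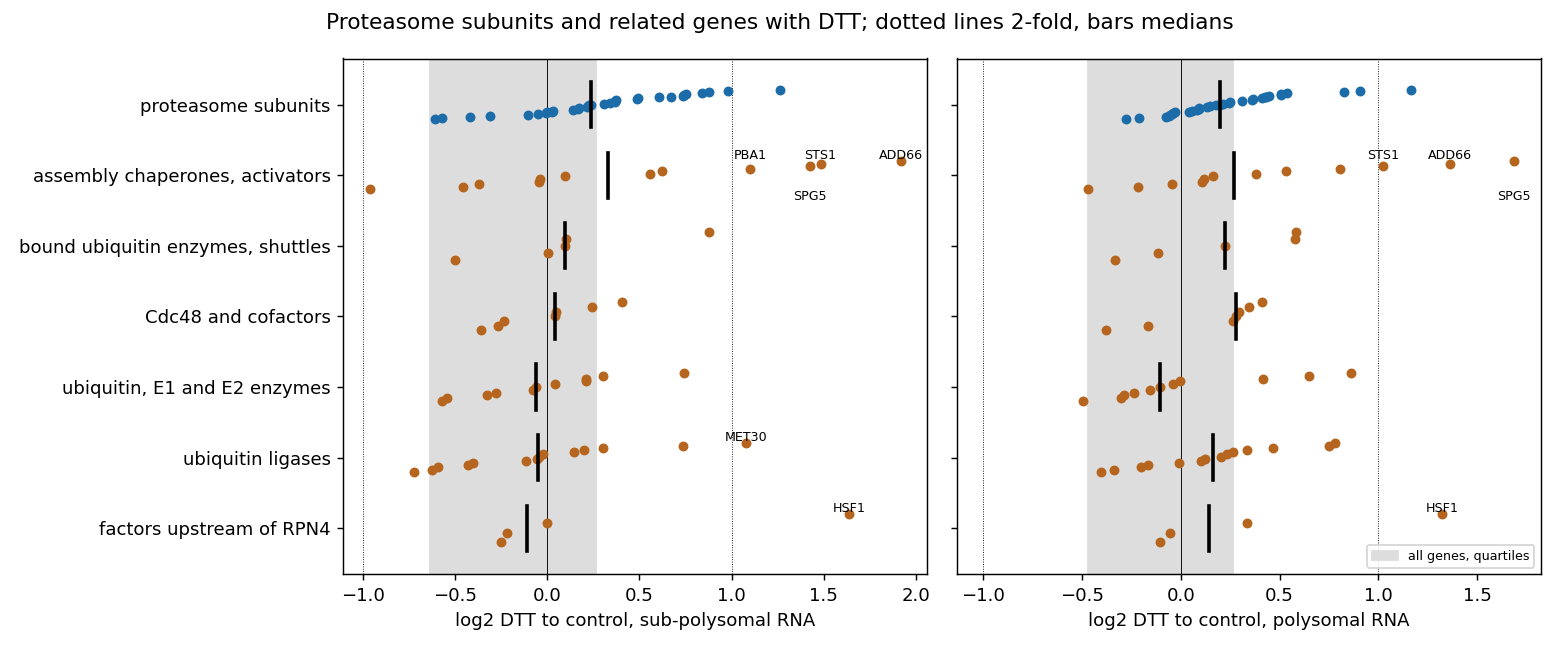
Log2 DTT to control in sub-polysomal (left) and polysomal RNA (right) for the 33 proteasome subunit genes (blue) and 6 lists of related genes (brown); black bars are medians, the grey band the interquartile range of all genes, dotted lines 2-fold. ADD66, SPG5, STS1 and HSF1 lie past 2-fold in both fractions.

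Ubiquitin genes upstream of the proteasome stayed within 2-fold with 1 exception, as most genes of any kind did. Of 5 enzymes and shuttle factors that bind the proteasome, 7 measured genes of the Cdc48 segregase, 11 of ubiquitin with its activating and conjugating enzymes and 14 ubiquitin ligases, 1 was 2-fold higher, MET30 of sulphur metabolism control (2.11-fold in sub-polysomal RNA, log2 0.75 in polysomal RNA), and 0 were 2-fold lower in either fraction. The MET30 reading on the control sub-polysomal array (36.4) lay near the floor of 28.2. Past 2-fold on the higher side lay 5.68% (sub-polysomal) and 4.33% (polysomal) of all genes, and on the lower side 11.1% and 7.04%. The list medians lay between -0.06 and 0.10 in sub-polysomal RNA and between -0.11 and 0.28 in polysomal RNA. The extremes were DSK2 (-0.50) and RAD23 (0.88), UBX2 (-0.36) and OTU1 (0.41), UBA1 (-0.57) and CDC34 (0.74), and HUL4 (-0.72) and MET30 in sub-polysomal RNA. In polysomal RNA they were DSK2 (-0.33) and HUL5 (0.58), SHP1 (-0.38) and PNG1 (0.41), UBC13 (-0.50) and MMS2 (0.86), and SKP1 (-0.41) and CDC53 (0.78). UBI4, the stress gene for polyubiquitin, had changes of -0.32 and 0.65.

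Coding length, which bounds how many ribosomes fit on a message, went with the polysome ratio only weakly. Over the 33 subunit genes, from 270 to 2982 bases, the correlation of the ratio with log2 length was 0.08 in control cells and 0.33 with DTT, beside 0.08 and 0.08 over all 3923 genes. The points share their arrays and are not independent. The lengths are those of genes and include introns where a gene has one. The set of all genes, from 73 to 14733 bases, was not limited to coding genes.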

How the data were processed

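RNA was measured on 4 Affymetrix YG_S98 arrays, 1 per group, with groups taken from the sample titles. The authors deposited linear intensities, a value per probe set, already scaled per array to similar trimmed means. The sources used here do not name the summary algorithm.

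Probe sets took their genes from the platform annotation and their current symbols and lengths from assembly R64. Of 9335 probe sets, the 6504 that name 1 gene gave gene values. The floor was 28.2 and 17.6 for the sub-polysomal and polysomal control arrays, and 22.6 and 15.9 for those with DTT. After a log2 transform, the median of the 4720 measured probe sets was subtracted array by array, and a gene's measured probe sets were averaged, so every ratio is relative to that median. Calculations used Python 3.11.15, pandas 2.3.3 and statsmodels 0.14.6 and were checked on simulated arrays.

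All 35 members are named. Of the related lists, genes past 2-fold and the extremes of each list are named. The members and lists were chosen with earlier results of these data known. Alternatives changed the floor, the scaling, the choice of probe sets and the fold limit. Promoter motifs were not analysed here, and gene lengths replaced the planned protein lengths. The number of arrays limits the precision.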

Additional observations from a re-analysis of the deposited data

Results flagged for a closer look

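Of the 35 genes, 3 stood on opposite sides of 0 with DTT in the 2 RNA fractions, by a difference larger than the spread between probe sets (0.43). PUP3 was higher in sub-polysomal RNA and slightly lower in polysomal RNA, a difference (polysomal minus sub-polysomal) of -0.78. RPT2 and UMP1 were lower in sub-polysomal and slightly higher in polysomal RNA, by 0.72 and 0.95. With 1 array per group the differences were not tested. Over 9 alternative settings they ranged from -0.90 to -0.61 for PUP3, from 0.60 to 0.89 for RPT2 and from 0.83 to 1.12 for UMP1. The polysomal changes of PUP3 were small in every one, from -0.06 to 0.20.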

How the results depend on the processing

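No paired analysis was possible because each group has 1 array. Over 9 alternative settings of floor, scaling and probe sets, the number of the 35 genes (32 with the floor at the 60th percentile) with a polysome ratio above 0 was 27 to 35 in control cells and 31 to 35 with DTT. The number higher with DTT was 21 to 30 in sub-polysomal and 23 to 33 in polysomal RNA, and 18 to 28 in both. In each setting all of these shares stayed above that of all genes, which for both fractions was 26.3% to 36.8%.

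Sizes depended on the floor and the scaling. With no floor, the median over all subunits was 1.02 in place of 0.69 for the control polysome ratio and 0.47 in place of 0.24 for DTT in sub-polysomal RNA. On the hybridisation controls, the median ratio with DTT was 0.94 over all subunits, 1.00 for the core, 0.82 for the base and 0.90 for the lid. The all-gene median was 0.43. The median change in association of all subunits turned to 0.11 there, beside 0.25 for all genes. This scaling shifts whole arrays. Such a shift cannot alter the median of the 35 genes less that of all genes (0.51 for the ratio with DTT and -0.14 for association). That difference was 0.38 and -0.07 under loess scaling, and 0.38 and -0.17 under quantile scaling. Counts past a fold limit were unstable. Genes enriched 2-fold in polysomes of control cells numbered 19 at a 1.5-fold limit, 0 at 3-fold, 1 with the floor at the 60th percentile, 12 on hybridisation controls, 2 with loess and 17 with no floor. With DTT they numbered 18 at 1.5-fold, 0 at 3-fold, without centring and at the 60th percentile, 16 on hybridisation controls, 9 with no floor and 2 with quantile scaling. Genes higher with DTT in sub-polysomal RNA numbered 9 at 1.5-fold, 0 at 3-fold, 2 without centring, at the 20th percentile, on hybridisation controls and with loess, 4 with no floor and 3 with quantile scaling, and 2 were lower at 1.5-fold. In polysomal RNA they numbered 3 at 1.5-fold and on hybridisation controls, 2 with no floor, and 0 at 3-fold and at the 60th percentile. Association was higher for 2 genes at 1.5-fold and 1 on hybridisation controls, and lower for 2 at 1.5-fold and 0 at 3-fold, at the 60th percentile, on hybridisation controls and with loess. The causes were not tested.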
